A study of Sus scrofa with 6 samples.

Results

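The thymus of a pig with a biallelic RAG2 knockout was compared with that of a wild-type littermate, both at 3 months of age, by sequencing of total RNA. RAG2 forms, with RAG1, the recombinase that cuts and joins the gene segments of antigen receptors, and the title of the series describes immunodeficient (SCID) pigs in which 1 amino acid was deleted. Genes were taken as measured where either thymus library reached 1 FPKM (fragments normalised for transcript length and library size), which left 2908 of the 4122 genes listed. MASP2, a complement protease at 1.001 and 0.782 FPKM, lay just inside that limit, and CP, ceruloplasmin at 0.372 and 0.9997 FPKM, just outside it. The series holds 6 libraries, 1 per genotype from each of thymus, lymph node and spleen, so that no difference within the thymus has a replicate check and no test was made. No label ties the 3 tissues of a genotype to the same pig. Values are given in the order wild type, then knockout.

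T cells are made in the thymus from progenitors that arrive by the blood. In the cortex they commit to the T lineage under Notch signals and rearrange the receptor beta chain while they carry neither coreceptor, a stage called double-negative. A beta chain that pairs with the pre-T-cell receptor alpha chain (PTCRA) gives the signal of beta selection, after which thymocytes divide, gain CD4 and CD8 and become double-positive. They then rearrange the alpha chain, are selected on epithelium, and enter the medulla as CD4 or CD8 single-positive cells, where medullary epithelium and dendritic cells display tissue antigens to them. Growth and upkeep of the medulla are known to depend on signals from these late thymocytes.

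A call had to meet 2 conditions. The log2 of the knockout over the wild-type level, after 1 FPKM was added to both, had to reach 1 or -1, and the 95% Clopper-Pearson interval of the ratio of scaled fragment counts had to lie on the same side of equality. Folds are these count ratios with their intervals, which cover counting error only. By this rule 392 genes (13.5% of those measured) were higher and 248 (8.53%) lower in the knockout thymus, and the median log2 ratio of all was 0.00. These shares of all measured genes are the background for every list count below. By size alone 441 genes were higher and 317 lower. Of the genes called lower, 40 had 0 fragments in the knockout. Of those called higher, 19 had 0 fragments in the wild type. These folds are lower bounds, set against 3 fragments in the library at 0. For 37 called genes neither library reached 10 fragments.

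**Figure D1:**
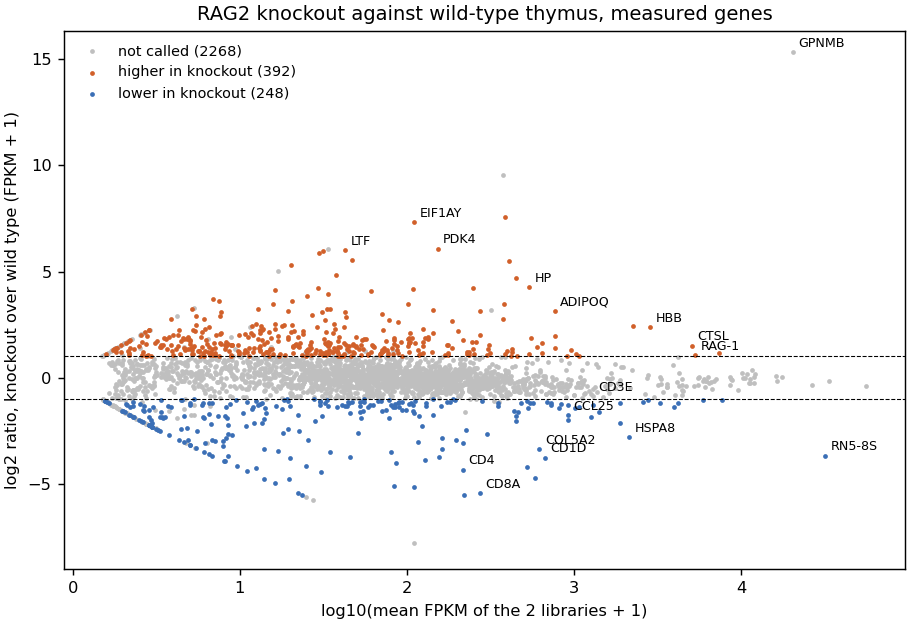
Each point is 1 of the 2908 measured genes. The x axis is the log10 of the mean FPKM of both thymus libraries plus 1, the y axis is the log2 ratio (knockout to wild type, FPKM plus 1), dashed lines mark ratios of 1 and -1, and colours mark the 392 genes called higher and the 248 called lower. CD8A, CD4 and CD1D lie far below the bulk, and HP, PDK4 and LTF far above it, while RAG-1 is at the top end of expression with a ratio just above 1. GPNMB, uncoloured at the top, rests on 4 fragments.

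The libraries held 2541724 and 2397922 fragments assigned to listed genes, and the 10 most abundant genes took 15.9 and 17.0% of them. The identity of the tissue was clear in both: of 10 thymocyte markers listed, all were detected, and the parathyroid marker PTH was at 0 in both. The thymocyte markers summed to 9668 and 10480 FPKM, which does not mean an equal thymocyte content. RAG-1 was the largest part of either sum and was higher in the knockout, while CD3E, LCK, CD4, CD8A, CD8B and CCR9 were lower (below). EIF1AY, a gene of the Y chromosome (chromosome Y, 9687350 to 9704489), had 1 and 597 fragments, and in lymph node and spleen it had 0 and 209 and 0 and 194. The knockout libraries therefore carried Y-linked transcript and the wild-type libraries next to none, and genotype and sex cannot be told apart. The ribosomal RNA entries moved in opposite directions, RN18S with 2049 and 6426 fragments and RN5-8S with 1644 and 134 fragments, and the part of RNA handling in the results was not tested. The summed levels of markers of other cells went in both directions. Higher in the knockout were neutrophil at 118 and 2028 FPKM, fat at 163 and 1431 FPKM and red cell at 912 and 4782 FPKM. Macrophage, which rests on C1QA, C1QB and C1QC, was higher too at 941.5 and 2222 FPKM. Cortical epithelium, which rests on CCL25 and KRT8, was lower at 2274 and 921.1 FPKM. In tissue RNA, fewer cells of a type and less RNA per cell cannot be told apart. Levels are also relative to the other RNA of the library, so a higher value need not mean more cells or more RNA per cell. Both limits hold for every group below.

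The recombinase genes stood high in both libraries and higher in the knockout. RAG1, listed as RAG-1 (chromosome 2, 24565447 to 24573853 in Sscrofa11.1), was at 3435 and 7134 FPKM, 2.08-fold higher (2.05 to 2.10), and supplied 1.23% of the listed fragments in the wild type (Clopper-Pearson interval 1.21 to 1.24) and 2.76% in the knockout (2.74 to 2.78). These shares grow with transcript length, and EEF1A1 alone supplied more fragments in either library. RAG2 itself (chromosome 2, 24547605 to 24553944) was at 606 and 1072 FPKM, 1.77-fold higher (1.69 to 1.86), and its log2 ratio of 0.82 missed the size for a call. A deletion of 1 amino acid need not alter the transcript level, so they cannot serve as a check of the genotype. PTCRA (chromosome 7, 38006074 to 38012193) was at 302 and 611 FPKM, 2.02-fold higher (1.87 to 2.19). IL7R, the receptor for the growth factor IL-7 that double-negative cells need, was at 236 and 560.3 FPKM, 2.37-fold higher (2.22 to 2.53). These 4 genes, which serve cells before and at the beta-chain checkpoint, were thus 1.77- to 2.37-fold higher by fragment count in the knockout, and 3 of them were called. RAG1 and RAG2 are used again by double-positive cells for the alpha chain, so their level does not belong to 1 stage.

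Few T-lineage factors switched on at commitment were called. Of 9 measured members of the Notch and commitment list, 0 were called higher and 1 lower, against 13.5 and 8.53% of all genes, with a median log2 ratio of 0.07. With counts scaled to their total, 1 was higher and 0 lower, so the balance of this list turns with the scaling. BCL11B, the factor that fixes T-cell identity, was at 205 and 235 FPKM, 1.15-fold higher (1.07 to 1.23). LEF1, a partner of beta-catenin, was at 1359 and 1043 FPKM, 1.30-fold lower (1.26 to 1.34), and HES1, a direct Notch target, at 52.3 and 49.7 FPKM, 1.05-fold lower (0.798 to 1.39). GATA3 was the member called, at 73.1 and 33.9 FPKM and 2.16-fold lower (1.77 to 2.64), a call that was lost under that scaling (log2 ratio -0.98). IL2RA, a classical double-negative marker, is listed at 0 in both libraries, and NOTCH1, NOTCH3, TCF7 and ZAP70 were not analysed here. Of 11 measured genes of the earliest progenitors, 5 were higher and 0 lower, with a median of 0.70. SPI1 (PU.1), which progenitors lose on commitment, was at 25.6 and 61.9 FPKM, 2.41-fold higher (1.88 to 3.11), but macrophages express it too. ERG, a progenitor factor also found in endothelium, was at 14.8 and 48.0 FPKM, 3.24-fold higher (2.51 to 4.23), and HHEX at 3.23 and 11.7 FPKM, 3.61-fold higher (1.76 to 8.14). KIT, the stem cell factor receptor of early progenitors, did not reach a call at 19.4 and 32.1 FPKM, 1.66-fold higher (1.39 to 1.98). Macrophage and endothelial marker levels moved in the same direction as these genes, and their part in the list was not tested.

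The signalling chains of the receptor complex were lower by graded amounts. CD3G was at 1142 and 956 FPKM, 1.19-fold lower (1.12 to 1.27), and CD3E at 1685 and 918 FPKM, 1.84-fold lower (1.76 to 1.92), both short of a call. CD3D was at 1037 and 427 FPKM, 2.43-fold lower (2.23 to 2.65), and CD247, the zeta chain, at 2144 and 688 FPKM, 3.12-fold lower (2.99 to 3.25). The 3 CD3 genes lie side by side on chromosome 9, yet the intervals of their folds do not overlap. LCK, the kinase that starts signalling from the coreceptors, was at 940.0 and 428 FPKM, 2.198-fold lower (2.10 to 2.30), and its relative FYN at 179 and 77.9 FPKM, 2.29-fold lower (2.02 to 2.61). Of the recombination and pre-T-cell receptor list, 3 of 13 measured members (23.1%) were higher and 4 (30.8%) lower, with a median of -0.26. The shares of all genes were 13.5 and 8.53%. Genes of end joining and break repair, the step that seals the cuts, showed no call in 6 measured members (median 0.01), among them ATM at 36.6 and 38.0 FPKM and XRCC6 (Ku70) at 124 and 125 FPKM.

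Differences were far larger among the genes gained after beta selection. Of 15 measured members of the double-positive list, 14 were lower and 0 higher, against 8.53% lower among all genes, and the median log2 ratio was -3.50. CD4 (chromosome 5, 63892129 to 63918547) was at 412 and 19.5 FPKM. CD8A and its neighbour CD8B (chromosome 3, 57999228 to 58029768 and 57968358 to 57986450) were at 534 and 11.4 FPKM and at 1118 and 41.3 FPKM. Coreceptor transcript was low but still measured in the knockout. CD8A was 47.0-fold lower (37.1 to 60.3), CD8B was 27.1-fold lower (23.3 to 31.6), and these intervals do not overlap. CD4 was 21.2-fold lower (18.0 to 25.03). CCR9, the receptor by which thymocytes sense the epithelial chemokine CCL25, was at 431 and 8.44 FPKM, 51.1-fold lower (35.9 to 75.5). CD28, the costimulatory receptor, had 99 and 1 fragments, 101-fold lower (17.8 to 4046). CD1D, which presents lipids and is carried by cortical thymocytes, was at 1243 and 90.6 FPKM, 13.7-fold lower (12.5 to 15.1). The other lipid-presenting genes of that locus moved with it: PCD1B was at 384 and 44.6 FPKM, 8.60-fold lower (7.09 to 10.5), and PCD1E at 724 and 174 FPKM, 4.17-fold lower (3.75 to 4.65). CD1A was not analysed here.

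Genes that record a receptor signal were lower too. EGR2, an early response factor of selected thymocytes, had 60 and 1 fragments, 61.5-fold lower (10.6 to 2468), and CD69, a surface marker of recent signalling, was at 62.5 and 4.59 FPKM, 13.6-fold lower (6.35 to 34.8). CD5, whose level follows signal strength, was at 378 and 68.2 FPKM, 5.54-fold lower (4.95 to 6.22), and CD27 at 293 and 28.0 FPKM, 10.5-fold lower (7.82 to 14.3). CD2, an adhesion receptor already present on double-negative cells, was lower by less, at 1191 and 439.6 FPKM and 2.71-fold lower (2.53 to 2.90). BCL2L1 (BCL-XL), which keeps double-positive cells alive, was at 382 and 177 FPKM, 2.16-fold lower (1.84 to 2.53), a call lost with counts scaled to their total (log2 ratio -0.98). AQP3, a water channel, was the member of the list that was not called, at 313 and 262 FPKM. Ordered by size, folds ran from about equal for BCL11B, CD3G and LEF1, through 2.198-fold lower for LCK and 3.12-fold lower for CD247, with CD3D and CD2 between them, to 5.54-fold lower for CD5 and more than 10-fold lower for CD27, CD1D, CD4, CD8B, CD8A and CCR9. This order is not strictly that of stage: GATA3, of commitment, and BCL2L1, of double-positive cells, were both 2.16-fold lower.

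**Figure D2:**
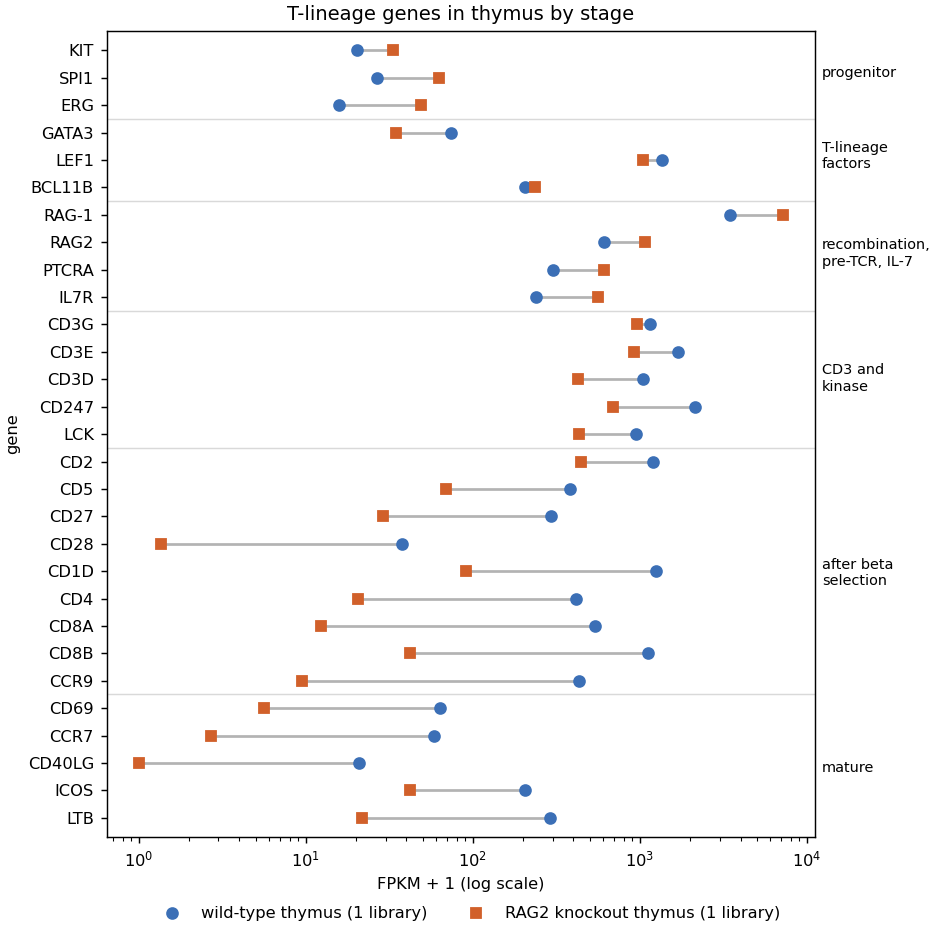
FPKM plus 1 on a log scale for 29 T-lineage genes, ordered from progenitor genes at the top to genes of mature thymocytes at the bottom. CD2 is drawn with the genes gained after beta selection, though double-negative cells carry it too. Circles are the wild-type and squares the knockout library, 1 library each, so no error bar is drawn. The squares lie to the right for RAG-1, RAG2, PTCRA and IL7R, close to the circles for BCL11B and CD3G, and far to the left from CD5 and CD27 to CD40LG.

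Genes of single-positive cells and of exit from the thymus were lower in 8 of 15 cases and higher in 2, with a median of -1.25, or -1.04 with genes at 0 placed at their bound. CCR7, which draws selected cells into the medulla, was at 57.3 and 1.71 FPKM, 33.5-fold lower (18.0 to 70.5). CD40LG, the helper ligand read by medullary epithelium and B cells, had 37 and 0 fragments and was at least 12.6-fold lower. LTB (lymphotoxin beta), another signal to epithelium, was at 286 and 20.6 FPKM, 13.9-fold lower (10.4 to 19.0), and ICOS at 205 and 41.0 FPKM, 4.99-fold lower (4.42 to 5.66). FOXP3, the factor of regulatory T cells, rested on 8 and 1 fragments, 8.20-fold lower (1.10 to 364). Among the 2 called higher was the thymocyte membrane gene ITM2A, at 16.3 and 37.8 FPKM.

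Lymphocytes other than alpha-beta T cells left a mixed record. Of 5 measured genes of gamma-delta and innate-like T cells, 3 were lower and 1 higher (median -1.83). CD163L1 (WC1), the scavenger receptor that marks gamma-delta T cells in pigs and cattle, had 267 and 0 fragments and was at least 91.2-fold lower. IL-18RA, a receptor chain for interleukin 18, was at 162 and 3.80 FPKM, 42.5-fold lower (16.3 to 158), and IL23RA had 26 and 2 fragments, 13.3-fold lower (3.33 to 116). The member higher was CXCR6, with a log2 ratio of 1.57. With a pseudocount of 5 FPKM the calls of CXCR6 (0.98) and IL23RA (-0.69) were lost. Of 7 measured B-cell genes 5 were lower and 0 higher (median -1.34). MS4A1 (CD20) had 68 and 2 fragments, 34.8-fold lower (9.28 to 293). CD79A and CD79B, the signalling chains of the B-cell receptor, did not reach a call, at 119.7 and 172 FPKM and at 15.6 and 11.7 FPKM. Both are thought to start before receptor rearrangement in B-cell development. CD79A was the higher of the pair in each library and was 1.44-fold higher (1.18 to 1.75). Of 12 measured genes of natural killer and innate lymphoid cells, 6 were higher and 2 lower (median 0.9996). The 2 lower were IL-18RA, counted among the gamma-delta and innate-like genes as well, and XCL1. Their log2 ratios were -5.08 and -1.92. NKL, the pig entry for granulysin, rested on 2 and 36 fragments, 17.6-fold higher (4.52 to 151), and NKG7, a granule protein, was at 20.8 and 49.7 FPKM, 2.39-fold higher (1.78 to 3.25). The signalling adaptors FCER1G, at 72.3 and 332 FPKM, and TYROBP, at 116 and 375 FPKM, belong to this list but serve myeloid cells too. NCR1, a defining marker, was at 0 in both libraries and GZMB at 0 in the knockout.

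Genes listed for cortical epithelium went in both directions, and some of them are found in other cells too. Of 12 measured members, 3 (25%) were higher and 1 (8.33%) lower (median 0.53), against 13.5 and 8.53% of all genes. CCL25 (chromosome 2, 71175066 to 71206950), the chemokine that binds CCR9, was the member lower, at 1423 and 414 FPKM and 3.43-fold lower (3.04 to 3.88), so that ligand and receptor were both lower. DLL4, the Notch ligand, was at 43.5 and 23.6 FPKM, 1.84-fold lower (1.57 to 2.17), and KRT8, a keratin of cortical cells, at 851 and 507 FPKM, 1.68-fold lower (1.60 to 1.77), neither of them called. LY75 (DEC-205), a cortical surface receptor, was nearly level at 628 and 549 FPKM, and so was the epithelial cytokine IL7 at 13.3 and 12.5 FPKM. CTSL (chromosome 10, 27668523 to 27674705), the cathepsin with which cortical epithelium prepares peptides for CD4 selection, was at 2661 and 7519 FPKM, 2.83-fold higher (2.76 to 2.89), but macrophages hold it as well. CCRL1, the scavenger of CCL19, CCL21 and CCL25, was at 5.68 and 114 FPKM, 19.97-fold higher (13.03 to 32.2), and the peptidase ENPEP at 7.16 and 29.8 FPKM, 4.15-fold higher (3.17 to 5.50). In lymph node and spleen CCRL1 was also higher in the knockout, with log2 ratios of 3.12 and 1.10. SIX4, a factor of pharyngeal pouch patterning, was at 7.76 and 19.97 FPKM, 2.57-fold higher (2.11 to 3.15). FOXN1, PSMB11 and PRSS16, which define cortical epithelium, were not analysed here.

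Of the 2 medullary chemokines that call CCR7-bearing cells, 1 was called lower in the tissue RNA. CCL19 was at 283 and 39.1 FPKM, 7.24-fold lower (4.20 to 13.4). The other CCR7 ligand, CCL21, rested on 4 and 9 fragments, too few for a call (2.196-fold higher (0.613 to 9.76)). Of 10 measured members of the medullary list, 3 (30%) were higher and 1 (10%) lower (median 0.31), against 13.5 and 8.53% of all genes. LTBR, the receptor for lymphotoxin, was at 14.97 and 50.3 FPKM, 3.36-fold higher (2.63 to 4.32), while its ligand LTB was lower. The tight junction gene CLDN4 was at 6.08 and 17.8 FPKM, 2.93-fold higher (1.63 to 5.53), and CD86, a costimulatory ligand shared with dendritic cells and macrophages, at 12.4 and 38.0 FPKM, 3.05-fold higher (2.02 to 4.74). CD40, which CD40LG engages, was at 47.1 and 26.7 FPKM, 1.77-fold lower (1.36 to 2.31), and CD80 at 3.26 and 4.30 FPKM, 1.32-fold higher (0.712 to 2.48), neither of them called. EPCAM, carried by epithelium in general, was at 196 and 242 FPKM. The summed medullary epithelium markers, which rest on CCL21 and CLDN4, were at 11.16 and 28.96 FPKM. AIRE, KRT5, KRT14 and RELB were not analysed here, so the list rests on few defining genes.

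Dendritic-cell genes went in both directions. Of 13 measured members 6 (46.15%) were lower and 3 (23.08%) higher, against 8.53 and 13.5% of all genes. The median was -2.00, or -0.80 with genes at 0 at their bound. Among those lower, CCL22 had 40 and 0 fragments and was at least 13.7-fold lower, and CCL17 had 27 and 1 fragments, 27.7-fold lower (4.56 to 1132). Both chemokines bind CCR4, which draws thymocytes into the medulla. FSCN1 (fascin), which shapes dendrites, was at 31.6 and 5.06 FPKM, 6.25-fold lower (4.46 to 8.96). IDO1, a tryptophan-degrading enzyme, had 46 and 0 fragments and was at least 15.7-fold lower, and the interleukin 12 chain IL12B had 21 and 1 fragments, 21.5-fold lower (3.46 to 889.6). Those higher were CD86, XCR1 and IRF8. XCR1, a chemokine receptor of cross-presenting dendritic cells, was at 3.35 and 18.0 FPKM, 5.42-fold higher (3.68 to 8.22), and IRF8, a lineage factor of these cells, at 45.0 and 127 FPKM, 2.82-fold higher (1.93 to 4.22). The ligand of XCR1, XCL1, was at 83.4 and 21.3 FPKM, 3.91-fold lower (1.98 to 8.42). CCR7 is a member of this list as well as of the single-positive list, and the cells its 327 and 10 fragments came from cannot be told apart here. In the other tissues CCL22 had log2 ratios of -0.48 in lymph node and -1.22 in spleen, FSCN1 0.27 and 1.56, and IDO1 0.48 and 0.78. The spleen value of CCL22 rests on 2 and 0 fragments.

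Chemokine genes went in both directions. Of 31 measured chemokine genes and receptors 12 (38.7%) were higher and 10 (32.3%) lower (median 0.11), against 13.5 and 8.53% of all genes. Besides CCR9, CCR7, CCL25, CCL19, CCL17 and CCL22, CCL20 had 20 and 0 fragments and was at least 6.83-fold lower. CCL1, which lies outside the list, had 49 and 0 fragments and was at least 16.7-fold lower. Among the higher ones, CCR1, a receptor of myeloid cells, was at 8.27 and 47.5 FPKM, 5.72-fold higher (4.43 to 7.48), and DARC, a chemokine sink of venules, at 6.34 and 32.0 FPKM, 5.04-fold higher (3.02 to 8.88). CXCL14, a chemokine of epithelium and stroma, was at 41.3 and 205 FPKM, 4.96-fold higher (4.25 to 5.81), with log2 ratios of -0.20 in lymph node and -0.73 in spleen. CXCL12, which holds progenitors in the cortex, and its receptor CXCR4 did not reach a call, at 430.0 and 687 FPKM and 2111 and 1661 FPKM.

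Genes that the thymus expresses and the other tissues do not were described as a set. Of 104 genes that reached 1 FPKM in a thymus library and in no lymph node or spleen library, 22 (21.2%) were lower, against 8.53% of all genes, and 13 (12.5%) higher, near the 13.5% of all genes, with a median of -0.75. Of the 22 lower, 15 had 0 fragments in the knockout and so entered the set through the wild-type library alone. The shares of this set therefore describe it and test nothing. KRT2, a keratin of upper epidermis (chromosome 5, 17984316 to 17992092), had 47 and 0 fragments and was at least 16.0-fold lower. CDSN (corneodesmosin), also epidermal, had 7 and 0 fragments, the vasopressin gene AVP had 13 and 0 fragments and the synapse organiser CBLN4 27 and 0 fragments. The intestinal genes APOA4, REG4, DMBT1 and CDX2 had 12 and 0, 6 and 0, 16 and 0 and 6 and 0 fragments. SFN (stratifin), a marker of stratified epithelium, was at 10.4 and 2.27 FPKM, 4.61-fold lower (2.11 to 11.5), and the kidney transporter POAT1-1 at 12.2 and 2.61 FPKM, 4.70-fold lower (2.48 to 9.63). DDC, an enzyme of amine synthesis with some expression in lymph node, had 28 and 0 fragments. Medullary epithelium is known to express genes of this kind out of place, but each rests on few fragments and the cells they came from were not tested. The higher genes of the set were PTCRA, SIX4, the peptide transporter SLC15A1 at 28.1 and 72.6 FPKM (2.59-fold higher (2.21 to 3.04)), the neuronal gene SLITRK1 with 0 and 36 fragments, HSD17B2 with 0 and 11 fragments, and 8 others.

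A separate list holds tissue antigens that medullary epithelium is known to display, whichever tissue they were measured in. Of 18 measured members 6 were higher and 1 lower, with a median of -0.60, or 0.00 with genes at 0 at their bound. CHGA (chromogranin A) was the member lower, with 11 and 0 fragments. Those higher included HP (haptoglobin), at 51.7 and 1020.2 FPKM and 19.7-fold higher (17.0 to 23.0), a plasma protein that neutrophils and fat also make, and SPP1 (osteopontin) at 26.3 and 54.2 FPKM, 2.06-fold higher (1.62 to 2.64). TG (thyroglobulin) had 2 and 10 fragments, and the other thyroid marker, TSHR, was at 0 in both libraries. With a pseudocount of 5 FPKM the list fell to 1 member higher and 0 lower, the calls of CHGA, SPP1, TG, AMY2 and MBP among those lost.

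Muscle genes, which the thymus expresses in rare myoid cells, were lower in 9 of 19 measured cases and higher in 3 (median -0.94). ACTC1 (cardiac actin) had 34 and 0 fragments and was at least 11.6-fold lower, and MYLPF, a fast myosin light chain, had 25 and 0 fragments and was at least 8.54-fold lower. The slow and cardiac genes TNNC1, TNNI1, MLC2V and MYH7 had 13 and 1, 16 and 1, 20 and 2 and 81 and 21 fragments. MYOG (myogenin), a factor of muscle differentiation, had 6 and 0 fragments. The opposite was seen for MYF6, another muscle factor, at 4.52 and 25.9 FPKM and 5.74-fold higher (3.35 to 10.4), while the fast myosin MYH1 was at 23.2 and 45.6 FPKM, 1.97-fold higher (1.71 to 2.27), without a call. The summed level of 3 skeletal muscle markers was 9.22 and 3.42 FPKM, of which CKM was at 0 in both libraries.

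**Figure D3:**
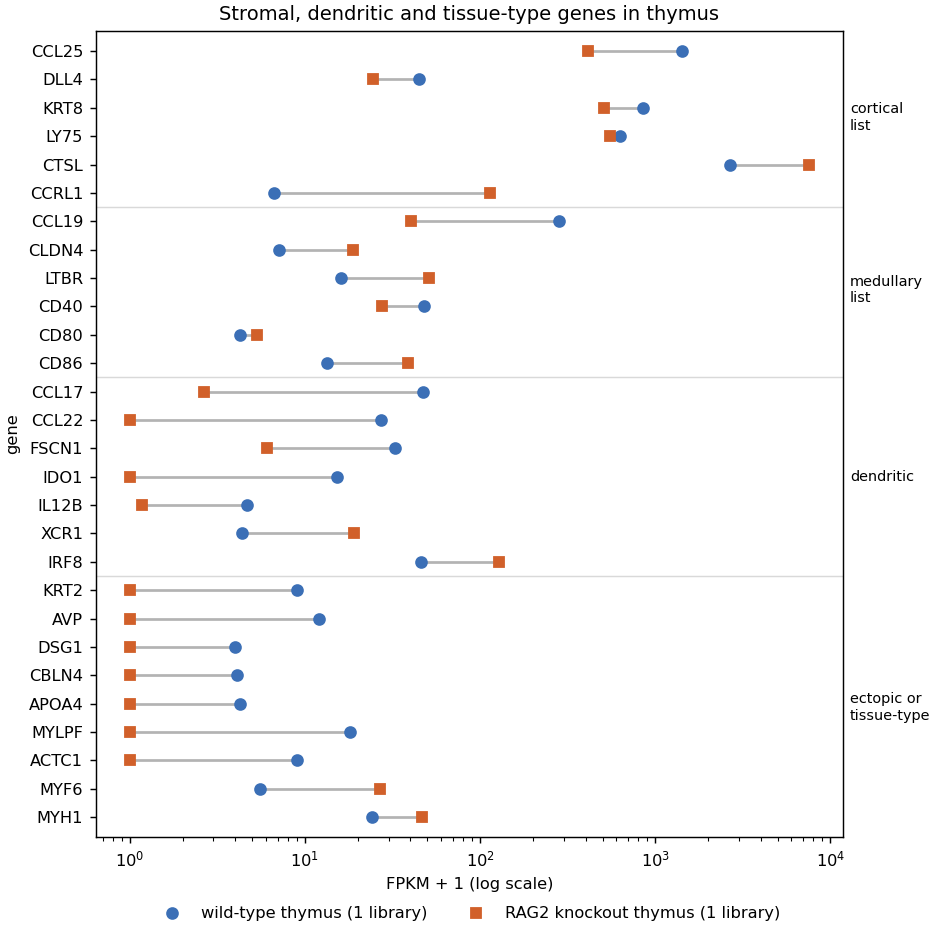
FPKM plus 1 on a log scale for 28 genes of the cortical, medullary and dendritic lists and of tissue-type genes. Circles are the wild-type and squares the knockout library, 1 library each, and a square at the left edge is a gene listed at 0. CCL19, CCL17, CCL22, FSCN1 and IDO1 lie to the left in the knockout, CCRL1, LTBR, XCR1 and MYF6 to the right, and LY75 and CD80 are nearly level.

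Myeloid genes were higher in the knockout thymus by wide margins. Of 16 measured neutrophil genes 13 were higher and 0 lower, against 13.5% of all genes, with a median of 3.66. LTF (lactoferrin), of secondary granules, had 2 and 559 fragments, 273-fold higher (75.2 to 2259), and the antimicrobial peptide gene PR39 had 2 and 108 fragments, 52.7-fold higher (14.2 to 441). S100A8 and S100A9, the paired calcium-binding proteins of neutrophils, were at 32.0 and 859 FPKM and at 24.3 and 474 FPKM, 26.8-fold higher and 19.5-fold higher. LTF and PR39 are known to be made by precursors in bone marrow more than by circulating neutrophils. The stage of the cells behind these transcripts was not tested. In lymph node LTF had 5 and 5 fragments and PR39 0 and 6 fragments, while S100A8 had 4 and 148 fragments and S100A9 3 and 165 fragments. The summed neutrophil markers were higher in the knockout spleen too, at 37.48 and 1697 FPKM. Of 18 macrophage genes 13 were higher and 1 lower (median 1.39). The scavenger receptor MSR1 was at 19.6 and 134 FPKM, 6.83-fold higher (5.39 to 8.76), LYZ (lysozyme) at 94.5 and 655 FPKM, 6.94-fold higher (6.16 to 7.83), and VSIG4, a complement receptor of resident macrophages, at 38.8 and 168 FPKM, 4.48-fold higher (3.49 to 5.80). MARCO, another scavenger receptor, was the member lower, at 14.4 and 1.39 FPKM and 10.4-fold lower (4.52 to 29.5). CD163, a defining marker, is listed at 0 in both libraries.

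Of 6 measured cathepsins, proteases of the lysosome, 3 were higher and 0 lower (median 1.20). CTSB was at 319 and 881 FPKM, 2.77-fold higher (2.62 to 2.93), and CTSZ at 158 and 464 FPKM, 2.94-fold higher (2.68 to 3.23). No list of other lysosomal genes was used, and the 4 that follow were picked after their values were seen. PSAP, the precursor of the saposins that help degrade sphingolipids, was at 707 and 1445 FPKM, 2.04-fold higher (1.96 to 2.13). NPC2, which carries cholesterol out of lysosomes, was at 275 and 564 FPKM, 2.05-fold higher (1.89 to 2.22), and LIPA, the acid lipase, at 138 and 358 FPKM, 2.58-fold higher (2.31 to 2.89). DNASE2, the lysosomal nuclease with which macrophages digest the DNA of dead cells, was at 74.0 and 159 FPKM, 2.14-fold higher (1.85 to 2.49). CTSB, PSAP, NPC2, LIPA and DNASE2 are among the genes called in the thymus alone. Of 22 measured sensors of microbial products, 10 were higher and 2 lower (median 0.86), with TLR8 at 11.12 and 52.4 FPKM, TLR3 at 8.14 and 37.6 FPKM and TLR4 at 16.5 and 49.1 FPKM. Of 18 measured genes of complement and the acute phase, 9 were higher and 0 lower (median 1.30), among them C1QC at 550.1 and 1364 FPKM and the pentraxin PTX3, with 4 and 160 fragments. The summed macrophage markers went from 941.5 to 2222 FPKM, a sum that rests on C1QA, C1QB and C1QC. C1QC is thus part of this sum as well as of the complement list, and the part of macrophages in these groups was not tested.

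Most measured adipocyte genes were higher in the knockout thymus. Of 20 measured adipocyte genes 12 were higher and 1 lower (median 1.21). ADIPOQ (adiponectin) was at 156 and 1376 FPKM, 10.6-fold higher (8.46 to 13.5), and PLIN1, the coat protein of fat droplets, at 7.49 and 55.6 FPKM, 7.41-fold higher (5.11 to 11.08). PCK1, which makes glycerol for fat, had 1 and 98 fragments, 95.7-fold higher (16.8 to 3817). FASN (fatty acid synthase) was the member lower, at 147 and 62.9 FPKM and 2.34-fold lower (2.15 to 2.55). Fat around the organ and fat within it cannot be told apart in these libraries. Of 17 measured endothelial genes, 8 were higher and 0 lower (median 0.89). The junction gene CLDN5 was at 3.66 and 21.5 FPKM and the adhesion gene PECAM1 at 74.0 and 164 FPKM. HBB (beta globin) was at 912 and 4782 FPKM, 5.24-fold higher (4.88 to 5.64). It was the single red-cell marker listed, and its part in the endothelial and neutrophil groups was not tested.

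Fibroblast and matrix genes went in both directions. Of 20 measured, 9 were higher and 2 lower (median 0.64). The proteoglycan DCN was at 420.5 and 1115 FPKM, 2.65-fold higher (2.51 to 2.80), and the protease MMP2 at 33.3 and 113 FPKM, 3.40-fold higher (2.97 to 3.91). The 2 called lower were LUM (lumican), another small proteoglycan, and FBN1. LUM was at 83.8 and 31.5 FPKM, 2.66-fold lower (2.23 to 3.19), and FBN1 (fibrillin) at 151 and 71.2 FPKM, 2.10-fold lower (1.98 to 2.22). The main fibrillar collagens COL1A2 and COL3A1 were slightly lower without a call, at 329 and 232 FPKM and 924 and 690.1 FPKM. COL5A2, a chain of the minor collagen V, stood apart at 1129.7 and 108 FPKM, 10.5-fold lower (9.97 to 11.0), with log2 ratios of 0.58 in lymph node and -1.44 in spleen. COL3A1 and COL5A2 are neighbours on chromosome 15 (93556914 to 93595678 and 93611856 to 93981131), and per FPKM COL5A2 was above COL3A1 in the wild type and below it in the knockout.

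Few cell cycle genes were called. Of 21 measured, 3 (14.3%) were lower, against 8.53% of all genes, and 0 higher. Of the 21, 19 had a log2 ratio below 0, with a median of -0.54, and a like tilt was seen in the respiratory chain (25 of 31 below 0) and the proteasome (12 of 15). PCNA, the sliding clamp of DNA replication, was at 1484 and 545 FPKM, 2.72-fold lower (2.57 to 2.88), and CCND3, the cyclin D that drives expansion after beta selection, at 498 and 198 FPKM, 2.52-fold lower (2.22 to 2.87). MKI67, a marker of cycling cells, was at 249.9 and 203 FPKM, 1.23-fold lower (1.12 to 1.35), and CDK1 at 332 and 238 FPKM, 1.40-fold lower (1.27 to 1.53), neither of them called. The histone genes HIST1H3E and HIST1H2BD, whose messages are made in S phase, were at 2601 and 1146 FPKM and 3575 and 1615 FPKM, 2.27-fold lower and 2.21-fold lower. HMGN2, a nucleosome-binding protein, was at 7945 and 3849 FPKM, 2.05-fold lower (2.01 to 2.10), a call lost with counts scaled to their total (log2 ratio -0.92). Ribosomal protein genes gave 1 call in 41, RPL15 at 1308 and 529 FPKM.

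Heat-shock genes were among the most abundant that differed. HSPA8, the constitutive HSP70, was at 3742 and 532 FPKM, 7.04-fold lower (6.79 to 7.30), and its exchange factor HSPH1 at 521 and 81.8 FPKM, 6.37-fold lower (5.93 to 6.84). The cochaperones DNAJA1 and DNAJB1 were at 1971 and 551 FPKM and 695 and 197 FPKM, 3.58-fold lower and 3.53-fold lower. Of 16 glucocorticoid and stress genes 6 were lower and 1 higher (median -0.38), and the 6 lower were these, HSP90AA1 and ATF4. The glucocorticoid receptor NR3C1 was at 198 and 253 FPKM without a call, and KLF9, one of its targets, was the member higher, at 15.9 and 51.8 FPKM and 3.25-fold higher (2.10 to 5.21). The other tissues differed in the same direction: HSPH1 had log2 ratios of -2.05 in lymph node and -2.60 in spleen, and DNAJB1 -1.66 and -2.67. ATF4, the factor of the amino acid response, was called in the thymus alone, at 1185 and 493 FPKM and 2.40-fold lower (2.28 to 2.54).

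Of 20 measured genes of fatty acid and cholesterol metabolism 5 (25%) were lower, against 8.53% of all genes, and 2 (10%) higher, under the 13.5% of all genes (median -0.22). SQLE, an oxygenase of cholesterol synthesis, was at 86.1 and 13.2 FPKM, 6.50-fold lower (5.25 to 8.13), FDPS at 162 and 53.4 FPKM, 3.03-fold lower (2.56 to 3.60), and HMGCS1 at 90.8 and 41.8 FPKM, 2.17-fold lower (1.92 to 2.46). The 2 higher were CPT1A, which admits fatty acids to mitochondria, at 124 and 394 FPKM and 3.17-fold higher (2.77 to 3.64), and its regulator PPARA at 5.05 and 19.98 FPKM, 3.96-fold higher (2.37 to 6.92). PDK4, which closes the path from pyruvate to the citrate cycle, was at 3.48 and 299.6 FPKM, 86.1-fold higher (62.1 to 123), in the direction of the fat markers, whose part was not tested. TXNIP, a brake on glucose uptake, was at 696 and 3785 FPKM, 5.44-fold higher (5.25 to 5.64). Of 23 measured interferon-induced genes, 5 (21.7%) were higher, against 13.5% of all genes, and 2 (8.70%) lower, near the 8.53% of all genes. IFIT1 was at 26.0 and 78.4 FPKM and MX1, in the opposite direction, at 128 and 56.6 FPKM. Genes of class I presentation gave no call in 14 measured (median -0.06), and of class II 1 in 10, CTSL, with a median of 0.57.

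**Figure D4:**
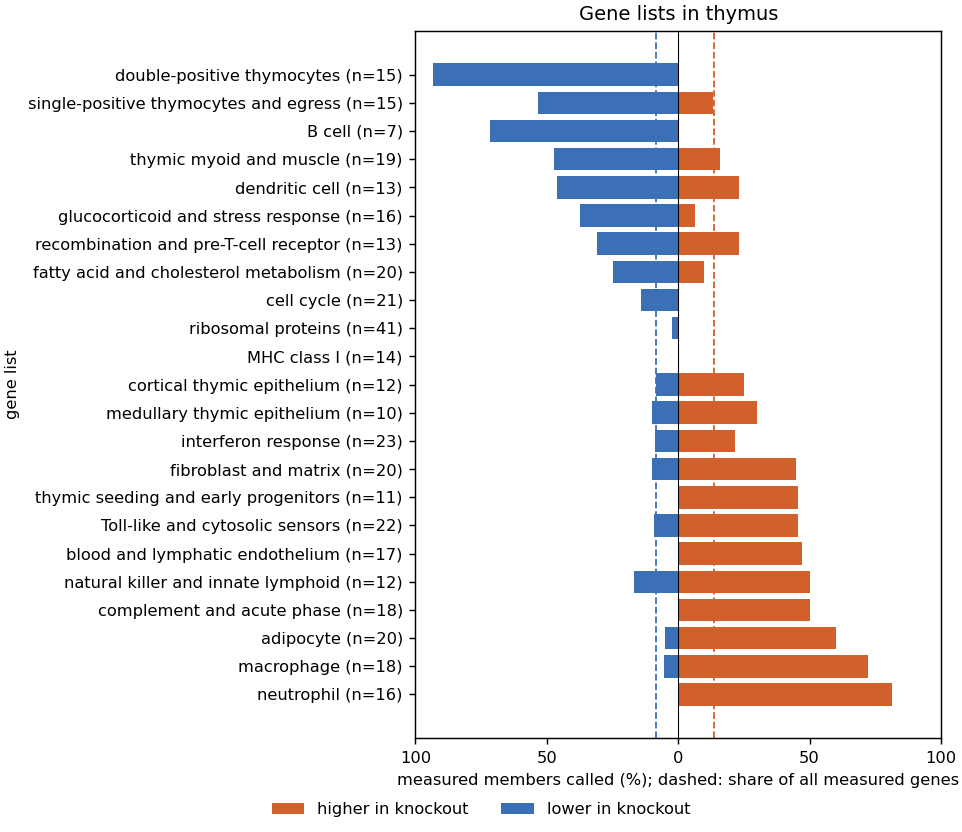
Share of the measured members of 23 gene lists called higher (right) or lower (left) in the knockout thymus, in percent. Dashed lines mark 13.5 and 8.53%, the shares of all measured genes, and n is the number of members measured. The double-positive list reaches furthest to the left with 14 of 15 and the neutrophil list furthest to the right with 13 of 16, while ribosomal and class I genes stay near 0.

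Part of the thymus comparison was shared with the other tissues. In lymph node 13.1% of 2910 measured genes were called higher and 8.87% lower, and in spleen 7.48 and 8.42% of 2849. Of the 392 genes higher in thymus, 173 were also higher in lymph node, which is 44.1% of the thymus and 45.3% of the lymph node genes. In spleen 80 were, or 20.4% of the thymus and 37.6% of the spleen genes. Of the 248 lower, 82 were lower in lymph node (33.1 and 31.8% of either set) and 57 in spleen (23.0 and 23.8%). Genes called in the same direction in all 3 tissues numbered 44 higher and 33 lower. Opposite calls were seen for 24 genes against lymph node and 48 against spleen, 67 genes in all.

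Genes called in the thymus alone were defined by 3 conditions. They were called in thymus, they were below 1 FPKM in both libraries or had a log2 ratio below 0.5 in size in each other tissue, and the 95% interval of the difference between tissues left out 0 wherever the gene was measured. This gave 57 higher (1.96%) and 43 lower (1.48%), 100 in all, of which 65 were measured elsewhere. ABCB1, a drug and steroid efflux pump (chromosome 9, 93049955 to 93146469), was at 214 and 5.09 FPKM, 42.1-fold lower (32.5 to 55.5), with log2 ratios of 0.33 in lymph node and -0.01 in spleen. GGT1, an ectoenzyme of glutathione breakdown, was at 147 and 12.2 FPKM, 12.04-fold lower (9.29 to 15.9), against 0.16 and -0.39. CD1D had ratios of -0.35 and -0.43 in these tissues, and EGR2 -0.34 and 0.15. Among abundant genes, the signalling gene PITPNC1 was at 226 and 89.3 FPKM, 2.54-fold lower (2.26 to 2.85), the adhesion gene AMICA1 at 121 and 45.9 FPKM, 2.63-fold lower (2.24 to 3.09), and the cytosolic malate dehydrogenase MDH1 at 673 and 294 FPKM, 2.29-fold lower (1.99 to 2.64).

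On the higher side of that set, FCER1G and TYROBP had log2 ratios of 2.18 and 1.68 in thymus and below 0.5 elsewhere. ASPA (aspartoacylase) was at 9.43 and 75.3 FPKM, 7.99-fold higher (5.12 to 13.1), and MAOB, a monoamine oxidase, at 7.58 and 37.8 FPKM, 4.99-fold higher (3.72 to 6.79). AIF1, a macrophage protein, was at 96.2 and 334 FPKM, 3.47-fold higher (2.86 to 4.24), the transcriptional repressor ZBTB38 at 23.6 and 85.4 FPKM, 3.62-fold higher (3.14 to 4.18), and GATM, of creatine synthesis, at 23.6 and 69.9 FPKM, 2.96-fold higher (2.45 to 3.59). RGS18, a regulator of chemokine signalling in blood cells, was at 108 and 240.4 FPKM, 2.24-fold higher (2.04 to 2.46), against -0.48 and -0.47. FABP6, the ileal bile acid binder, fell outside the set by its spleen value. It was at 3068 and 692 FPKM in thymus, 4.43-fold lower (4.09 to 4.81), and had no more than 1 fragment in each library of lymph node and spleen.

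**Figure D5:**
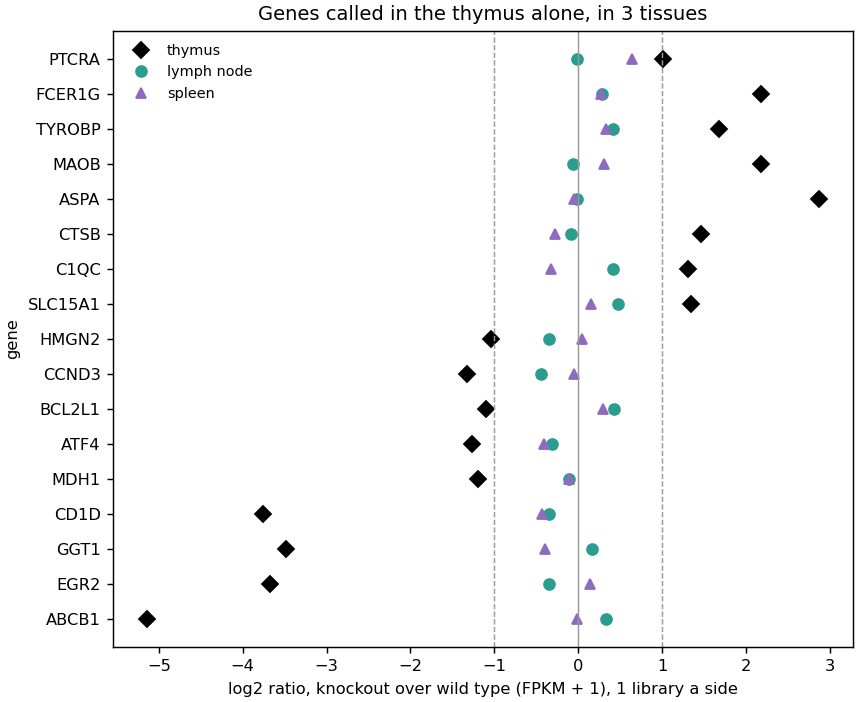
Log2 ratio of knockout over wild type (FPKM plus 1) in thymus, lymph node and spleen for 17 of the 100 genes called in the thymus alone, 1 library a side in each tissue. The solid line marks equality and the dashed lines ratios of 1 and -1. Diamonds (thymus) lie outside the dashed lines, from ABCB1 at -5.14 to ASPA at 2.87, and the symbols of lymph node and spleen lie near 0. For PTCRA the spleen symbol at 0.65 rests on 0 and 2 fragments, below 1 FPKM.

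A few FPKM values ran ahead of their fragments. Of 2422 genes with at least 10 fragments in both libraries, 4 (JAK2, SLC6A8, SPATA6 and TRPC1) differed 2-fold or more in FPKM per fragment between the libraries. ESR1, the oestrogen receptor, was at 3.06 and 771 FPKM on 5 and 19 fragments, so that its log2 ratio of 7.57 stands beside a count ratio of 3.71-fold higher (1.34 to 12.7). GPNMB, a lysosomal protein of macrophages, reached 40907 FPKM in the knockout on 4 fragments and was not called.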

How the data were processed

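Total RNA was extracted with an RNeasy kit and libraries were made with a TruSeq stranded total RNA kit, per the labels' protocols. FastQC 0.11.9, Trimmomatic 0.39, STAR 2.7.9a, Cufflinks 2.2.1 and the build Sscrofa11.1 were used, per the submitters' processing notes, which give no order or settings. Annotation, strand setting and handling of shared fragments are not stated in these sources, and paralogs and overlapping genes (the CD1, SLA and histone families, S100A8 and S100A9) are uncertain. The deposited FPKM values were used as they are. The deposited estimated counts had been multiplied by 1 factor per library, as read from the values: 97.0 to 99.2% came out whole (tolerance 0.02) once divided by the commonest non-zero value. They were divided by this step and rounded, and the deposited factors were kept as scaling. Totals (1922562 to 2541724 fragments) cover the listed genes, not the depth of the libraries. No unused column was left.

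Ratios and intervals were computed in Python 3.11.15 with scipy 1.17.1. Factors from edgeR 4.0.16 (TMM) and DESeq2 1.42.0, other pseudocounts, expression minimums and sizes were tried as alternatives. The steps were tested on simulated data. The difference between tissues is that of log2 count ratios with 0.5 fragments added, with a normal interval. Of the 4122 symbols 3721 matched the RefSeq table as current and 226 as older names, and coordinates come from it (Sscrofa11.1).

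Genes were named by rule: 47 stage and compartment genes (33 listed), in each of 48 lists and families up to 6 called members with the largest ratios and at least 10 fragments, and the 15 highest and 15 lowest of all called genes and of those called in the thymus alone, with at least 5 FPKM. The members, lists and rule were chosen with earlier results of these data known. Named after their values were seen were AMICA1, APOA4, AQP3, ATM, CBLN4, CCR1, CD40, CD69, CD79A, CD79B, CDK1, CDSN, CDX2, COL1A2, COL3A1, CP, CXCL12, CXCL14, CXCR4, DMBT1, DNASE2, EPCAM, FABP6, FASN, FBN1, FOXP3, GPNMB, HMGCS1, HSP90AA1, IL12B, IL7, IRF8, ITM2A, JAK2, LIPA, LUM, LY75, MASP2, MDH1, MKI67, MYH1, MYH7, MYOG, NPC2, NR3C1, PCD1B, PCD1E, PECAM1, PITPNC1, PSAP, REG4, RGS18, RN18S, RN5-8S, SFN, SIX4, SLITRK1, SPATA6, TRPC1 and XRCC6. Some genes that the rule names are not reported here.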

Additional observations from a re-analysis of the deposited data

Results flagged for a closer look

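Named genes were singled out where thymus and another tissue were called in opposite directions and the 95% interval of the difference between them left out 0. The value is the difference of log2 count ratios, thymus minus the other tissue, with its counting interval. There is 1 library per tissue and genotype, so the difference between animals or samplings was not tested.

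Against spleen, 6 of these genes belong to T-cell development, the stroma that guides it, or growth. RAG-1 differed by 4.98 (2.58 to 7.37), with log2 ratios of 1.05 in thymus and -1.52 in spleen, where it had few fragments. IL7R differed by 4.19 (3.55 to 4.82), higher in the knockout thymus and lower in the knockout spleen. CCL19 differed by -7.16 (-8.06 to -6.27), with ratios of -2.82 and 4.26, and FSCN1 by -4.22 (-4.74 to -3.69). IGF1 differed by 5.20 (3.04 to 7.35) and MET, the receptor for hepatocyte growth factor, by 3.77 (2.97 to 4.57).

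Another 5 of these genes, of macrophages, blood and stroma, were higher in the knockout thymus and lower in the knockout spleen. They were picked for their opposite calls, and of all genes higher in thymus 80 were also higher in spleen. The values were 5.58 (5.18 to 5.98) for MSR1, 3.87 (3.33 to 4.40) for FOLR2 and 3.47 (3.37 to 3.58) for HBB. They were 2.80 (2.60 to 3.00) for DCN and 2.86 (1.60 to 4.11) for CNN1, a smooth muscle gene. The interferon-induced MX1 differed by -3.05 (-3.27 to -2.84) and the leukocyte integrin ITGAL by -2.57 (-2.74 to -2.40), both lower in thymus and higher in spleen. SLC6A8, the creatine transporter, differed by 2.26 (1.43 to 3.10) by fragments. Its FPKM log2 ratios, 4.17 in thymus and -5.37 in spleen, lie much further apart than that. The thymus ratio is one of those out of step with its fragments, and its excess of 3.58 does not cover the gap.

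Against lymph node the genes were IL23RA, at -6.36 (-8.39 to -4.33), the scavenger receptor MARCO, at -4.40 (-5.57 to -3.23), and the glycolytic aldolase ALDOC, at -3.53 (-3.89 to -3.18). All 3 were lower in the knockout thymus and higher in the knockout lymph node. The thymus call of IL23RA was lost with a pseudocount of 5 FPKM (log2 ratio -0.69).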

How the results depend on the processing

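Under the alternatives run, no named gene that was called turned its direction, but the balance of 6 lists did. With counts scaled to their total, the Notch and commitment list went from 0 higher and 1 lower to 1 higher and 0 lower, and the glycolysis list from 1 higher and 2 lower to 2 higher and 1 lower. HES1, not called, went from -0.07 to 0.04. With a log2 size of 2, the chemokine list had 5 higher and 8 lower, the interleukin receptors and the medullary list 0 higher and 1 lower each, and the glycolysis list 1 higher and 0 lower. By size alone the peripheral antigen list had 6 higher and 7 lower. With a pseudocount of 5 FPKM in place of 1, 258 genes were higher, the single-positive list had 5 members lower and the adipocyte list 7 higher. With a minimum of 5 FPKM the single-positive list again had 5 lower. With a log2 size of 2, 98 genes were higher, 88 lower and 25 called in the thymus alone, list members called numbered 44 higher and 44 lower, the recombination list had 0 lower, and the macrophage and adipocyte lists had 4 higher each. Without the counting interval 441 were higher and 317 lower. Scaling counts to their total moved the median of all genes by 0.12 (log2) and gave 453 higher and 229 lower, 66.4% higher among those called against 61.3%. Of the named genes with a value, 6 lost their side of the threshold under that scaling, 2 under TMM or DESeq2 factors, 28 with a pseudocount of 5 and 108 with a size of 2. No paired analysis was possible because each tissue and genotype has 1 library, and for the same reason no library could be left out. Depth limits the ectopic, muscle and lymphoid genes, many of which rest on fewer than 10 fragments in the knockout.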
